A study of Mus musculus with 12 samples.

Results

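Ifi44 and Ifi44l are neighbouring interferon-inducible genes on mouse chromosome 3, and both were read at higher counts in macrophages lacking CD36 than in wild-type (WT) macrophages. The pair is 2 of the 43346 genes of the count table, taken by gene symbol, and both were among the 16281 genes with enough counts to test. The pair was selected on the measured counts themselves, namely the difference between CD36 KO and WT libraries. That difference is therefore given as a description without a test. The response of the genes to oxLDL within a genotype was not itself the ground for the choice and was tested. This response shares its libraries with the difference that chose the genes, so its p-values are not independent of the choice.

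RNA was sequenced from cultured peritoneal macrophages, phagocytes of the abdominal cavity, of mice labelled C57BL/6. The 4 groups, with 3 libraries each and 12 in all, were CD36 KO cells given oxLDL (oxidized low-density lipoprotein, 20 µg/ml, 8 h), WT cells given the same oxLDL, CD36 KO cells in control medium, and WT cells in control medium. CD36 is a scavenger receptor that binds oxLDL, the modified lipoprotein that loads macrophages with lipid. The labels give the same strain for both genotypes. The labels do not state the age or sex of the mice, which part of Cd36 was removed, how the cells were purified, or whether replicates came from separate animals or cultures. P-values therefore reflect how far these libraries differ from each other, and that spread may be technical.

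Type I interferons are released by cells that sense viral nucleic acids or bacterial products. They bind the receptor made of IFNAR1 and IFNAR2, whose kinases activate transcription factors. These factors bind interferon-stimulated response elements in the promoters of many genes, and macrophages respond strongly. Ifi44 and Ifi44l belong to those genes and encode related cytoplasmic proteins. The human proteins IFI44 and IFI44L have been described as brakes on the interferon response that act through FKBP5 and the kinases IKKβ and IKKε. RefSeq lists MTAP44 and p44 as other names of Ifi44. It lists H28 as another name of Ifi44l, a name known from a minor histocompatibility antigen, that is, an antigen recognized in grafts between inbred mouse strains.

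In GENCODE M21 (GRCm38, the assembly also called mm10) both genes are protein-coding and lie on the minus strand of chromosome 3. Ifi44 spans bases 151730922 to 151749960 and its main transcript has 8 exons and 2910 bases. Ifi44l spans bases 151758737 to 151762892 and has 1 transcript with 3 exons and 1376 bases, and 8.78 kb separate the annotated ends of the pair. The annotation tags Ifi44l as touched by an error of the reference genome, a tag carried by 13 of its 55450 genes. The count table gives 1 exon per gene as its position. For Ifi44l this is the coding part of the last exon, and the table's length of 486 bases is close to the 469 coding bases annotated. For Ifi44 it is the whole last exon, with a table length of 6116 bases. By these numbers the UTRs of Ifi44l lie outside the length used for it in the table, and levels per length compare a coding region with all exons of Ifi44.

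The promoters are shown because the genes share an inducer in these data. They are the 250 bases before each RefSeq start (GRCm38.p6, minus strand), at chr3:151749911-151750160 for Ifi44 and chr3:151762892-151763141 for Ifi44l. Capitals mark matches to letters resembling the core of the interferon-stimulated response element. They were searched on both strands as GAAA followed by GAAA with 1, 2 or 3 bases of any kind between them.
Ifi44 promoter: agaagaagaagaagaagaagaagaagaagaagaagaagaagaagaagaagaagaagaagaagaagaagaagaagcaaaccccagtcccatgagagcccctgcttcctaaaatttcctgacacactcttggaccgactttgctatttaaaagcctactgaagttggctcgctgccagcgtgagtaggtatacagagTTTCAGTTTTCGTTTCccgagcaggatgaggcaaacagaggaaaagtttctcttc
Ifi44l promoter: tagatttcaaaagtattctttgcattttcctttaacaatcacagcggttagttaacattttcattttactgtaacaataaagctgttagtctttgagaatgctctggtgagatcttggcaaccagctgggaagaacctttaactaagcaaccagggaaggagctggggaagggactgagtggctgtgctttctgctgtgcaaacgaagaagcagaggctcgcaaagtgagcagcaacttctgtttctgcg
Within the Ifi44 promoter, the form with 1 base between matched at positions -48 to -40 and the form with 3 bases between at positions -55 to -45 relative to the start, on the strand opposite to the gene and overlapping each other. The form with 2 bases between was not found in the Ifi44 window, and no form was found in the Ifi44l window. Of 32851 mouse promoter windows of the same length, 2.68% held the form with 1 base between, 2.98% that with 2, 2.38% that with 3, and 7.45% at least 1 of the 3 forms. The motifs were chosen after the sequences had been seen, and a match is a string of letters and not a known binding site.

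The coding parts of the last exons are shown because the table places Ifi44l on this coding stretch and because the genes are relatives whose reads might be exchanged. They lie at chr3:151732380-151732553 (Ifi44) and chr3:151759641-151759835 (Ifi44l) on the minus strand of GRCm38, with the stop codon in capitals.
Ifi44 last coding exon: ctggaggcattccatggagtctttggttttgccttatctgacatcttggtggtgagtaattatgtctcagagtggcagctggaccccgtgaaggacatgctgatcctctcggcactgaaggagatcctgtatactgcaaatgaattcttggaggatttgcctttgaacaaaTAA
Ifi44l last coding exon: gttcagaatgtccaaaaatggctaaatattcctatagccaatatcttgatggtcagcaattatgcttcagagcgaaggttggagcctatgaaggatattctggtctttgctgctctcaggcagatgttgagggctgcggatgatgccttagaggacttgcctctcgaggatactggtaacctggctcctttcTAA
A BLAST search of the transcripts against all GENCODE M21 transcripts found 1 other gene for each, its partner in the pair, at 76.7% identity over 103 bases. The pair shared no stretch of 31 bases.

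The libraries held 35257762 to 65135955 counts. Levels below are CPM (counts relative to a TMM-scaled library size), as mean ± SD over 3 libraries. Cd36 averaged 199 ± 7.58 CPM in CD36 KO cells and 3099.5 ± 1047 CPM in WT cells under oxLDL. In control medium Cd36 averaged 481 ± 28.3 CPM in CD36 KO cells and 5360.5 ± 106 CPM in WT cells, so the gene was reduced but not absent in the libraries labelled KO. WT oxLDL replicate 1 stood apart, with r = 0.952 and 0.953 with the others of its group across genes, against 0.988 to 0.995 for other pairs, and a TMM factor of 0.729 against 0.839 to 1.18. Summed macrophage markers reached 15230 to 34773 CPM in every library. All 7 had a negative log2 difference between CD36 KO and WT under oxLDL, with a median of -0.60 and 3 called lower, and in control medium the median was -0.51 and 2 were called lower. The 6 B cell markers summed to 145 ± 17.9 CPM in CD36 KO and 22.5 ± 6.90 CPM in WT under oxLDL, and to 175 ± 94.2 CPM in CD36 KO and 26.5 ± 12.05 CPM in WT in control medium, without overlap. All 6 passed the test as higher in CD36 KO in both media. The 6 mesothelial or fibroblast markers summed to 1743.5 ± 175 CPM in CD36 KO and 688 ± 103 CPM in WT under oxLDL, and to 2059.5 ± 588 CPM in CD36 KO and 786 ± 189 CPM in WT in control medium. Of these, 4 passed as higher in CD36 KO under oxLDL and 3 in control medium. The shares called over all tested genes were 11.7% higher and 9.86% lower under oxLDL, and 8.78% higher and 2.42% lower in control medium. Summed large peritoneal macrophage markers lay between 45.8 and 86.8 CPM over the libraries and T cell markers between 0.800 and 1.70 CPM. Of 5 large peritoneal macrophage markers, 1 passed as higher in CD36 KO and 2 as lower under oxLDL, and 2 as higher in control medium. Mast cell markers summed to 3.98 to 5.56 CPM in CD36 KO and 1.32 to 3.49 CPM in WT under oxLDL. In control medium they summed to 4.34 to 5.60 CPM in CD36 KO and 1.28 to 1.83 CPM in WT, again without overlap. Of 4 tested mast cell markers, 1 passed as higher under oxLDL and 2 in control medium. Neutrophil markers lay between 6.07 and 59.6 CPM and plasmacytoid dendritic cell markers, among them the interferon-induced Bst2, between 84.7 and 940 CPM, with both sets lowest in control medium. Of 4 tested plasmacytoid dendritic cell markers, 1 passed as higher in CD36 KO and 2 as lower under oxLDL, and 1 as higher in control medium. Of 3 tested neutrophil markers, 1 passed as lower under oxLDL and 0 passed in control medium. In bulk RNA, more cells of a type and more RNA per cell cannot be told apart. The part of any of these marker sets in the results below was not tested.

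Ifi44 had its highest counts in CD36 KO cells under oxLDL and was nearly silent in untreated WT cells. Its counts were 8613, 8186 and 11148 in the CD36 KO oxLDL libraries, 1615, 5334 and 4020 in the WT oxLDL libraries, 808, 412 and 649 in the CD36 KO controls, and 56, 66 and 34 in the WT controls. After scaling this came to 222.9 ± 54.3 CPM in CD36 KO oxLDL, 86.7 ± 29.3 CPM in WT oxLDL, 14.6 ± 4.56 CPM in CD36 KO control and 1.18 ± 0.345 CPM in WT control (SD, n = 3 each). The 4 groups kept this order with no overlap: the lowest library of each group lay above the highest library of the next. The nearest neighbours were CD36 KO oxLDL, with a lowest library at 169.6 CPM, and WT oxLDL, with a highest library at 111.0 CPM.

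Under oxLDL, Ifi44 was 2.57-fold higher in CD36 KO than in WT cells, a log2 difference of 1.36 ± 0.31 (SE, edgeR fit of all 12 libraries). In control medium it was 12.3-fold higher in CD36 KO cells, a log2 difference of 3.62 ± 0.36. These differences chose the gene, so no p is attached. As background, 21.6% of all tested genes were called different between CD36 KO and WT cells under oxLDL and 11.2% in control medium, at an adjusted p under 0.05. Ranked by the absolute fitted difference among 16281 genes, Ifi44 stood at place 1252 under oxLDL and at place 92 in control medium. Without WT oxLDL replicate 1 the log2 difference under oxLDL was 1.10.

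Ifi44 rose with oxLDL in both genotypes. In CD36 KO cells it rose 15.2-fold, a log2 change of 3.93 ± 0.35 (SE, adjusted p = 6.99e-06, edgeR quasi-likelihood test with Benjamini-Hochberg adjustment). In WT cells it rose 72.9-fold, a log2 change of 6.19 ± 0.40 (adjusted p = 3.87e-07, same test). Every oxLDL library lay above every control library of its genotype. Of all tested genes, 27.4% were called changed with oxLDL in CD36 KO cells (11.6% higher, 15.7% lower) and 36.7% in WT cells (18.1% higher, 18.6% lower). The response in CD36 KO cells was smaller by 2.26 ± 0.46 on the log2 scale than that in WT cells. This difference is made of the genotype differences that chose the gene and carries no p. As background, 0.669% of all genes were called for it. In the authors' deposited tables the log2 responses of Ifi44 were 3.97 in CD36 KO cells and 6.19 in WT cells.

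Ifi44l was counted in every CD36 KO library and was at or next to 0 in every WT library. The CD36 KO oxLDL libraries held 877, 830 and 1336 counts of Ifi44l, and the WT oxLDL libraries held 0, 0 and 0. The CD36 KO control libraries held 195, 74 and 135 counts, and the WT control libraries held 0, 0 and 1. The levels were 24.3 ± 8.20 CPM in CD36 KO oxLDL and 3.16 ± 1.40 CPM in CD36 KO control (SD, n = 3 each). The limit that 3 counts over a WT group would give was 0.0245 CPM under oxLDL and 0.0229 CPM in control medium, and it covers counting error only. Both WT groups lay under it.

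The genotype difference of Ifi44l can only be bounded under oxLDL. There the summed counts were 3043 in CD36 KO and 0 in WT cells, at least 970-fold higher in CD36 KO against a limit of 3 counts over the WT group. In control medium they were 404 in CD36 KO and 1 in WT cells, a ratio of 415 after scaling with an exact 95% counting interval of 74.1 to 16450. The single WT count lay in WT control replicate 3, and without that library the ratio was at least 95.4. Without WT oxLDL replicate 2 the bound under oxLDL was 522. Among all 43346 genes of the table, only Ifi44l had at least 20 counts in each of the 6 CD36 KO libraries and at most 1 count over the 6 WT libraries together. With at least 10 counts per CD36 KO library there were 6 such genes, namely Ifi44l, BC018473, Gm8199 and the immunoglobulin variable segments Ighv4-2, Ighv3-2 and Ighv9-1. In the opposite direction, Akr1cl and Ptgds had at least 20 counts in each WT library and at most 1 count over the CD36 KO libraries. These count limits were chosen after the values had been seen.

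Ifi44l also rose with oxLDL in CD36 KO cells, 7.68-fold, a log2 change of 2.94 ± 0.38 (SE, adjusted p = 0.000319, edgeR quasi-likelihood test with Benjamini-Hochberg adjustment). The lowest oxLDL library stood at 17.3 CPM and the highest control library at 4.58 CPM. Over the same contrast the 6 B cell markers had a median log2 change of -0.22 and the 6 mesothelial or fibroblast markers one of -0.25. Which cells gave the rise of Ifi44l was not tested. In the authors' deposited table the log2 response of Ifi44l in CD36 KO cells was 2.98. In WT cells no fold change with oxLDL can be given, since both groups were under the limit of 3 counts.

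**Figure D1:**
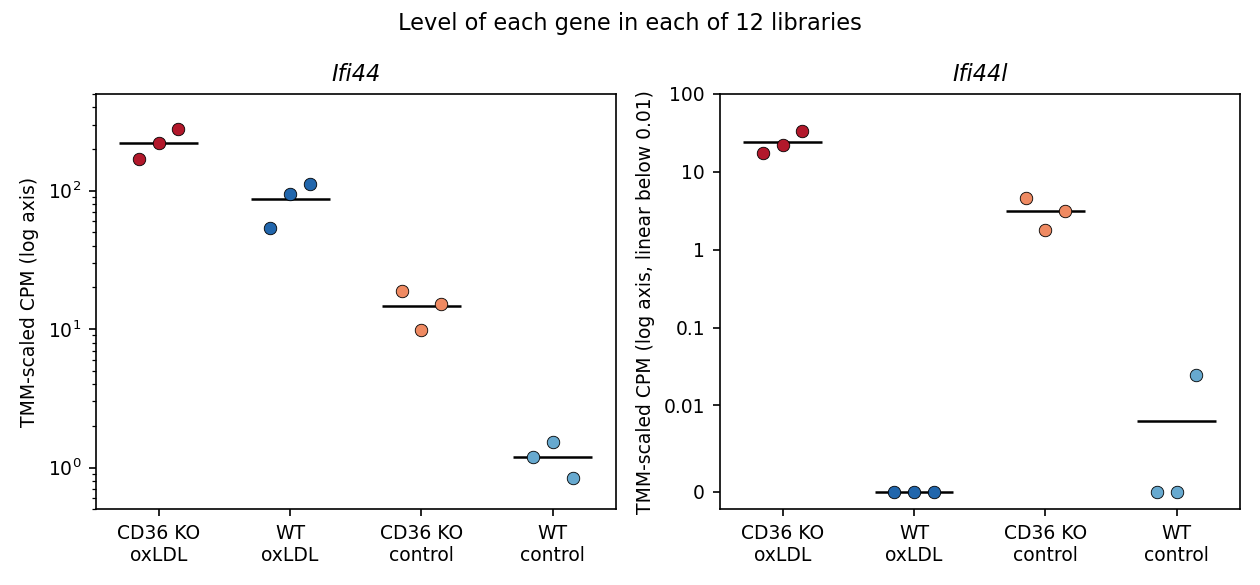
Levels of Ifi44 (left, log axis) and Ifi44l (right, log axis that is linear below 0.01) in TMM-scaled CPM, with 1 point per library and a bar at the mean of each group of 3. The 4 groups of Ifi44 do not overlap, and for Ifi44l 5 of the 6 WT libraries lie at 0 while CD36 KO libraries lie between 1.77 and 33.3 CPM.

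In WT cells the near absence of Ifi44l held even where its neighbour was abundant. The 3 WT oxLDL libraries together held 10969 counts of Ifi44 and 0 of Ifi44l, which allows at most 0.0273 counts of Ifi44l per 100 of Ifi44. In CD36 KO oxLDL libraries there were 10.2, 10.1 and 11.98 counts of Ifi44l per 100 of Ifi44. CD36 KO control libraries held 24.1, 18.0 and 20.8. The share was lower in each oxLDL library than in each control library of CD36 KO cells, in step with the larger log2 response of Ifi44. Scaled by length and depth (RPKM, as deposited), Ifi44l reached 50.6 ± 13.9 and Ifi44 37.0 ± 6.81 in CD36 KO oxLDL. In CD36 KO control Ifi44l reached 7.49 ± 3.31 RPKM and Ifi44 2.76 ± 0.846 RPKM. These levels rest on the unequal lengths of 486 and 6116 bases.

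Most of the rows next to the pair had few or no counts. Of the 5 table rows before the pair, Rpsa-ps10, a ribosomal protein pseudogene by its name, was well covered, with summed counts of 2614 in CD36 KO oxLDL and 3064 in WT oxLDL libraries, and 2429 in CD36 KO control and 2588 in WT control libraries. RP23-345H12.1 and Mir3963 had no counts. Eltd1, an adhesion G protein-coupled receptor gene of endothelial cells, had 28 counts in CD36 KO oxLDL and 4 in WT oxLDL libraries, and 36 in CD36 KO control and 14 in WT control libraries, and the small nuclear RNA gene Gm24458 had at most 3 in a library. Of the 5 rows after it, Gm25056, Gm16198 and D630002J18Rik had no counts. Gipc2, which encodes a PDZ domain adaptor, had 31 counts in CD36 KO oxLDL and 17 in WT oxLDL libraries, and 20 in CD36 KO control and 45 in WT control libraries.

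The nearest row to Ifi44l outside the pair was Ptgfr, the gene of the prostaglandin F receptor. It lay 39.3 kb away between listed start positions, which are of 1 exon per gene and are not the annotated gene ends. Ptgfr moved in the same direction as the pair at a very low level. It had 57 counts in CD36 KO oxLDL and 9 in WT oxLDL, with 18 to 20 counts per CD36 KO library and 0 to 7 per WT library. Its log2 difference under oxLDL was 2.61 ± 0.56 (SE, adjusted p = 0.0077, edgeR). Ptgfr passed the filter on low counts only through the CD36 KO oxLDL libraries, where it was high, so this call is not independent of the filter. In control medium it had 18 counts in CD36 KO and 2 in WT cells, a ratio of 9.26 with a 95% counting interval of 2.22 to 82.2 (adjusted p = 0.0485, edgeR). That call was lost with the replicate number as a block (adjusted p = 0.0717), with no filter on low counts (0.0538), without any one of the WT control or CD36 KO oxLDL libraries, and without CD36 KO control replicate 1 or 2 or WT oxLDL replicate 3 (0.0613 to 0.155).

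Within 1 Mb of the pair by listed start position, 11 of 17 other genes could be tested. Under oxLDL 3 of the 11 (27.3%) were called, against 21.6% of all genes, and all were higher in CD36 KO: Ptgfr, Eltd1 with a log2 difference of 2.68 ± 0.64 (adjusted p = 0.0122), and Nexn, which encodes an actin-binding protein of muscle, with 1.90 ± 0.29 (adjusted p = 0.00126). In control medium 4 of the 11 (36.4%) were called, against 11.2% of all genes. Ptgfr, Nexn at 1.35 ± 0.27 (adjusted p = 0.00746) and the adenylate kinase gene Ak5 at 1.34 ± 0.32 (adjusted p = 0.0204) were higher, and the chaperone gene Dnajb4 was lower at -0.92 ± 0.17 (adjusted p = 0.0058). Apart from Dnajb4, at 14.3 ± 1.17 CPM in CD36 KO and 27.0 ± 0.442 CPM in WT control cells, these genes averaged at most 1.28 CPM in any group. Ptgfr and Eltd1 passed the filter on low counts only through CD36 KO libraries, with at most 7 and 5 counts in a WT library. Their calls as higher, and the share of 27.3% that holds them, are therefore not independent of the filter. The fit of the 2 groups alone called 2 of 9 tested genes under oxLDL and did not test Eltd1. Without WT oxLDL replicate 1, 5 genes were called under oxLDL and 6 in control medium, and without any one of the WT control libraries or CD36 KO control replicate 2, 2 were called in control medium. Ak5 lost its call in control medium without any one of the WT control libraries. It also lost it without CD36 KO control replicate 2 or 3 (adjusted p = 0.0627 to 0.095 over these fits, edgeR). Within 5 Mb, 6 of 25 tested genes (24%) were called under oxLDL and 5 of 25 (20%) in control medium. The median log2 difference of those 25 genes was 0.22 under oxLDL and 0.00 in control medium, against -0.03 and 0.01 over all tested genes.

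**Figure D2:**
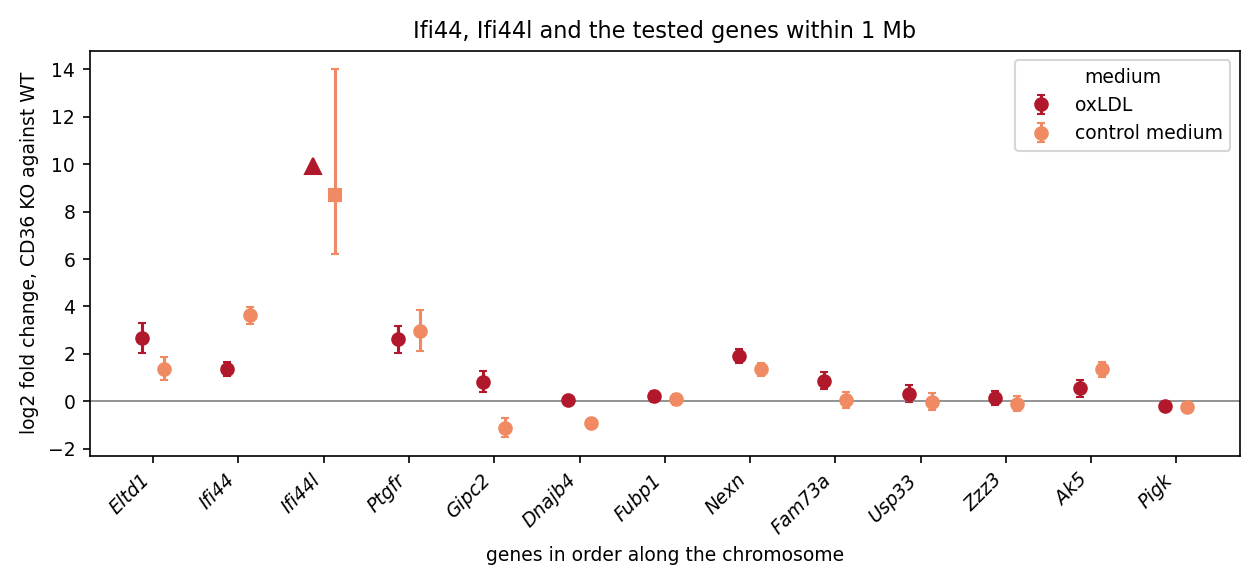
Log2 fold change of CD36 KO against WT for Ifi44, Ifi44l and the 11 tested genes within 1 Mb, in chromosome order, under oxLDL (dark) and in control medium (light). Circles are edgeR estimates with their SE; for Ifi44l the triangle is a lower bound (at least 970-fold) and the square a ratio of counts with its 95% counting interval. The 2 genes stand next to each other above most of their neighbours, and Ptgfr and Eltd1 rest on under 60 counts per group.

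Most listed interferon-induced genes were lower in CD36 KO than in WT cells under oxLDL, the opposite direction to the pair. A list of 50 effector genes, the antiviral and antigen-presenting genes downstream of interferon receptors, was compared in the same contrasts. Under oxLDL, 28 of the 50 fell in CD36 KO relative to WT cells and 22 did not pass, with a median log2 difference of -0.83 against -0.03 over all genes; 9.86% of all genes were called lower. The 7 macrophage markers had a median of -0.60 in the same contrast, and one of them, the Fc receptor gene Fcgr1, averaged 98.2 CPM in CD36 KO and 841 CPM in WT cells; their part in the fall was not tested. In control medium 3 rose and 3 fell, with a median of -0.21 against 0.01 over all genes, and 12 of the 50 had a positive difference. Over all genes, 8.78% were called higher there and 2.42% lower. In control medium DESeq2 called 4 higher and 8 lower, against 1662 and 924 of all 16281 genes. The fit of the 2 groups alone called 4 higher and 16 lower there, against 3437 and 3247 of 15612 genes. Under oxLDL the fit of the 2 groups called 12, all lower, against 332 of 15266 genes called lower. All 50 lay below Ifi44 in both media. Ifi44 was chosen for this difference and the effectors were not, so its standing above them is a description and no test. Outside the list, BC023105 lay above Ifi44 in both media and Gm4841 did so under oxLDL only, with values given below. Without WT oxLDL replicate 1, 40 effectors were lower and 1 higher under oxLDL, against 3519 and 2686 of 16636 genes. In control medium that fit called 13 effectors lower and 6 higher, against 2011 and 2859 of all genes. Without CD36 KO oxLDL replicate 1, 18 effectors were called under oxLDL. In control medium 2 effectors were called without WT control replicate 3 and 3 without CD36 KO control replicate 3.

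The effectors with the lowest difference under oxLDL were Isg20, an RNA exonuclease gene, Ifi27l2a, and Mx1, which encodes an antiviral GTPase. Isg20 averaged 24.1 ± 11.98 CPM in CD36 KO and 121 ± 57.2 CPM in WT cells, a log2 difference of -2.33 ± 0.38 (adjusted p = 0.00184, edgeR). Ifi27l2a averaged 15.3 ± 7.09 CPM in CD36 KO and 72.5 ± 43.5 CPM in WT cells, with -2.25 ± 0.40 (adjusted p = 0.00279). Mx1 averaged 177 ± 34.7 CPM in CD36 KO and 669 ± 18.7 CPM in WT cells, with -1.92 ± 0.26 (adjusted p = 0.000723). Isg15, the gene of a ubiquitin-like modifier, averaged 415 ± 187 CPM in CD36 KO and 908 ± 157 CPM in WT cells, with -1.13 ± 0.28 (adjusted p = 0.0154). The highest were Xaf1, a pro-apoptotic gene, at 0.46 ± 0.26 (adjusted p = 0.227), the guanylate-binding protein gene Gbp5 at -0.04 ± 0.47 (adjusted p = 0.966) and Parp14, an ADP-ribosyltransferase gene, at -0.04 ± 0.24 (adjusted p = 0.927).

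In control medium the 3 effectors that rose in CD36 KO cells were the chemokine gene Cxcl10, Gbp2 and Xaf1. Xaf1 averaged 35.4 ± 4.40 CPM in CD36 KO and 13.4 ± 1.03 CPM in WT cells, a log2 difference of 1.40 ± 0.27 (adjusted p = 0.00637, edgeR). Cxcl10 differed by 1.45 ± 0.38 (adjusted p = 0.0304) and Gbp2 by 1.40 ± 0.30 (adjusted p = 0.0125), while Gbp5, the highest at 1.51 ± 0.49, missed the threshold (adjusted p = 0.0757). Those that fell were Ifi27l2a at -1.46 ± 0.39 (adjusted p = 0.035), Slfn8 at -1.17 ± 0.20 (adjusted p = 0.00366) and Oasl2, of the oligoadenylate synthetase-like family, at -0.64 ± 0.16 (adjusted p = 0.0216). Gm14446 at -0.94 ± 0.41 (adjusted p = 0.192), Mx1 at -0.82 ± 0.26 (adjusted p = 0.0723) and Isg15 at -0.66 ± 0.29 (adjusted p = 0.201) did not pass. The largest of these fitted differences, 1.51, compares with 3.62 for Ifi44, which was chosen for its difference.

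**Figure D3:**
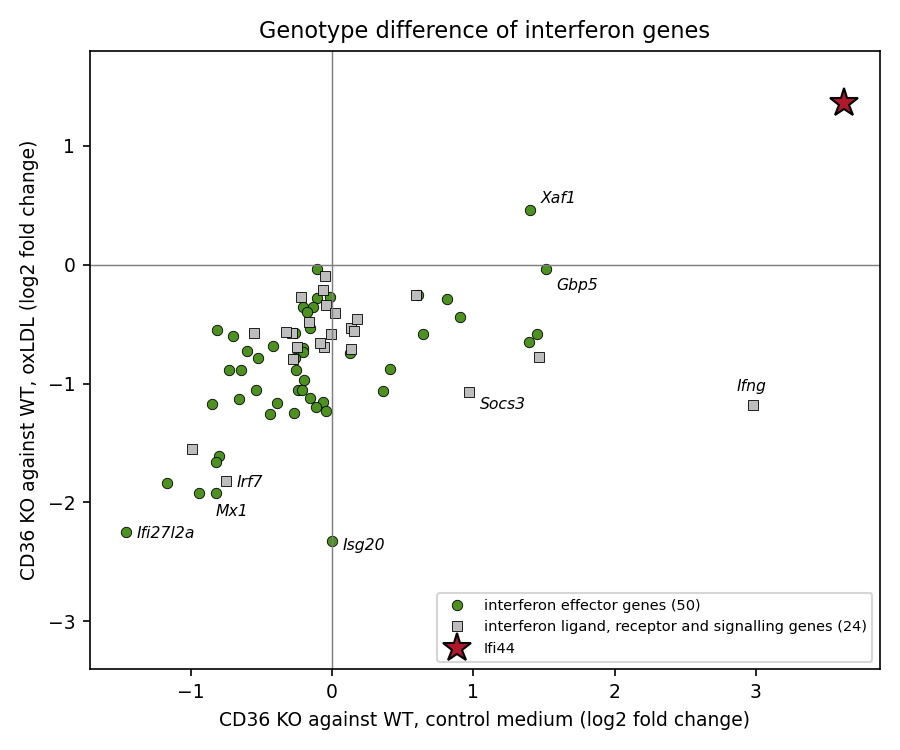
Log2 fold change of CD36 KO against WT in control medium (horizontal) and under oxLDL (vertical) for 50 interferon effector genes, 24 tested ligand, receptor and signalling genes, and Ifi44 (star). Ifi44 lies at 3.62 and 1.36 in the upper right, whereas 49 of 50 effectors lie below 0 under oxLDL; Ifng rests on 2 WT counts in control medium.

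The ligands, receptors and signalling genes of the pathway were likewise not higher in CD36 KO cells under oxLDL. Of 29 listed genes 24 could be tested, and 13 of the 24 fell under oxLDL, with a median log2 difference of -0.57. Over all genes 9.86% were called lower and the median was -0.03, and the fit of the 2 groups alone called 3 of the 24, all lower. Among them the receptor genes Ifnar1 and Ifnar2 differed by -0.70 ± 0.10 (adjusted p = 0.000829, edgeR) and -0.69 ± 0.12 (adjusted p = 0.00236). Irf7, a transcription factor that amplifies interferon production, averaged 488 ± 155 CPM in CD36 KO and 1722 ± 750 CPM in WT cells, with -1.82 ± 0.30 (adjusted p = 0.002). Usp18, an inhibitor of the receptor, differed by -1.55 ± 0.24 (adjusted p = 0.00145) and Stat2 by -0.55 ± 0.15 (adjusted p = 0.0248). Jak1 at -0.10 ± 0.22, Tbk1 at -0.21 ± 0.17 and Irf1 at -0.26 ± 0.23 were the highest (adjusted p = 0.798, 0.388 and 0.464 in that order).

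In control medium Socs3, a feedback inhibitor of cytokine receptors, rose by 0.97 ± 0.25 (adjusted p = 0.0261, edgeR), and Usp18 at -0.99 ± 0.25 (adjusted p = 0.0251) and Ifngr1 at -0.55 ± 0.11 (adjusted p = 0.00783) fell. Irf7 at -0.75 ± 0.30 (adjusted p = 0.149), Stat2 at 0.16 ± 0.15 (adjusted p = 0.651) and Socs1 at 1.47 ± 0.53 (adjusted p = 0.114) did not pass. Ifng, the gene of interferon gamma, had 18 counts in CD36 KO and 2 in WT control cells, a ratio of 9.26 with a 95% counting interval of 2.22 to 82.2 (adjusted p = 0.248, edgeR). Under oxLDL Ifng averaged 3.17 ± 1.75 CPM in CD36 KO and 7.18 ± 2.33 CPM in WT cells (adjusted p = 0.118). Without WT oxLDL replicate 1, 9 signalling genes were called in control medium, and without any one of the 6 control libraries 1 was. Of all tested genes, 8.78% were called higher and 2.42% lower in CD36 KO cells in control medium.

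The response of Ifi44 to oxLDL, in contrast, went the way of nearly all effectors. In CD36 KO cells 48 of the 50 rose, with a median log2 change of 2.82, and in WT cells 49 rose, with a median of 3.36, against -0.08 and -0.01 over all genes. Of all genes, 11.6% rose in CD36 KO and 18.1% in WT cells. Ifi44 was exceeded by 14 effectors in CD36 KO and by 4 in WT cells. Summed effector levels were 14970 ± 3287 CPM in CD36 KO oxLDL, 25371 ± 1576 CPM in WT oxLDL, 2110 ± 354 CPM in CD36 KO control and 2232 ± 142 CPM in WT control. Of the signalling genes, 15 rose and 1 fell with oxLDL in CD36 KO cells, and 17 rose and 1 fell in WT cells. The difference between the 2 responses of Ifi44, -2.26 on the log2 scale, was more negative than that of 49 of the 50 effectors, whose median was -0.78. In the fit of all 12 libraries 0 of the 50 effectors were called for this difference, against 0.669% of all genes. The value of Ifi44 is made of the genotype differences that chose the gene.

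**Figure D4:**
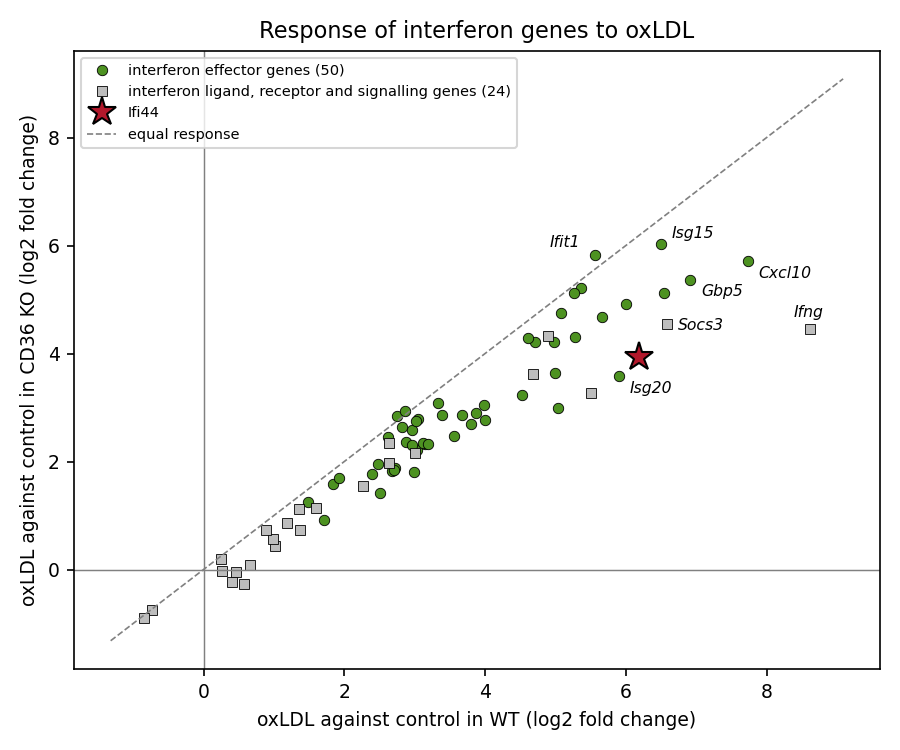
Log2 fold change of oxLDL against control in CD36 KO (vertical) and in WT cells (horizontal) for the same interferon genes, with a dashed line where both are equal. Ifi44 (star) lies at 3.93 and 6.19 and most genes lie under the line, though 0 of the 50 effectors were called for a difference between the responses. The value of Ifng in WT cells rests on 2 counts in control medium.

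Genes tied to the pair by structure or by partners of the human proteins were compared between CD36 KO and WT cells, where 21.6% of all genes were called under oxLDL and 11.2% in control medium. Under oxLDL 1 of 4 TLDc domain genes and 1 of 3 partner genes were called. Of the TLDc domain genes, which share that domain with Ifi44, 4 could be tested. Tldc1 fell in CD36 KO under oxLDL at 8.46 ± 0.581 CPM, against 12.3 ± 0.465 CPM in WT cells (adjusted p = 0.00791, edgeR). In control medium 0 of the 4 passed, with 1 at an unadjusted p under 0.05 and 0 by DESeq2. Fkbp5 differed by 0.42 ± 0.16 under oxLDL (adjusted p = 0.0811) and 0.44 ± 0.16 in control medium (adjusted p = 0.106). Ikbke, the gene of IKKε, fell in CD36 KO under oxLDL, with a log2 difference of -0.63 ± 0.18 (adjusted p = 0.0271) and differed by 0.05 ± 0.18 in control medium (adjusted p = 0.934). Ikbkb, the gene of IKKβ, differed by -0.18 ± 0.10 under oxLDL (adjusted p = 0.227) and by 0.00 ± 0.10 in control medium (adjusted p = 0.998).

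The genes whose levels followed each member most closely were different for the pair. By Pearson r of log2 CPM over the 12 libraries, the 5 closest to Ifi44 were Gm4841 (0.994), Timd4 (0.988), Vcam1 (0.975), BC023105 (0.974) and Cd33 (0.971). Gm4841 and BC023105 were higher in CD36 KO cells in both media, with log2 differences of 1.51 ± 0.41 and 1.87 ± 0.37 (SE) under oxLDL and of 3.35 ± 0.61 and 3.80 ± 0.57 in control medium, given as a description since the measure of likeness chose them. Timd4 encodes a receptor for phosphatidylserine on resident macrophages and Vcam1 an adhesion molecule. Timd4 averaged 8.06 ± 1.97 CPM in CD36 KO oxLDL, 5.60 ± 0.658 CPM in WT oxLDL, 1.33 ± 0.217 CPM in CD36 KO control and 0.169 ± 0.0187 CPM in WT control, the group order of Ifi44. The 5 closest to Ifi44l were BC018473 (0.985), Eno1b (0.978), St6galnac2 (0.978), Gm20478 (0.975) and C430002N11Rik (0.974). Eno1b averaged 61.1 ± 9.75 CPM in CD36 KO oxLDL, 1.5 ± 0.281 CPM in WT oxLDL, 35.7 ± 2.83 CPM in CD36 KO control and 1.03 ± 0.119 CPM in WT control. Ifi44 and Ifi44l correlated with each other at only 0.536. These values describe 12 libraries that fall into 4 groups and share the level of their group, and they carry no p.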

How the data were processed

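RNA-seq counts of 12 libraries, grouped by their titles, were analysed. The deposited table holds raw counts per gene, per the file headers. It also holds RPKM values that the authors computed per kilobase of the table's length, per the file headers. The authors' deposited tables of log2 fold changes and p-values (false discovery rates) were used only where credited. The submitters' processing notes name mm10 and FastQC; the aligner, counter and use of strand: not given in the sources used here.

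Genes were filtered with filterByExpr (minimum count 10, minimum total 15) and scaled by TMM. One edgeR 4.0.16 quasi-likelihood model (R 4.3.3) with robust spread and a mean for each of the 4 groups covered the 12 libraries. P-values were adjusted by Benjamini-Hochberg over 16281 genes, and a call needs an adjusted p under 0.05. SE was taken as the size of the log2 fold change over the root of its F statistic. Ifi44l against WT was given from summed counts, with 3 counts as the floor. Pattern likeness used log2 CPM with a prior count of 2. Sequences are from RefSeq and GENCODE M21 (BLAST 2.17.0).

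The members and gene lists were chosen with earlier results of these data known. Genes named beside the pair were the 5 rows on each side, genes within 1 Mb called between genotypes, the 3 highest and 3 lowest of each interferon list with Isg15, Mx1, Irf7 and Stat2 (a further gene of the rule is not reported here), and the 5 genes most alike in pattern. Eno1b, Timd4, Ifnar1 and Ifnar2 were singled out for their values, and the genes found by count limits were too. The steps were tested on simulated data. Alternatives were upper-quartile scaling, no filter, DESeq2 1.42.0, a replicate block, 2 groups only, and leaving out each library. Same-numbered libraries deviated at r = -0.399 to 0.357 and were not treated as pairs.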

Additional observations from a re-analysis of the deposited data

Results flagged for a closer look

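Socs3, a feedback inhibitor of cytokine receptor signalling from the interferon signalling list, responded differently to oxLDL in the 2 genotypes by the test of the difference itself. Its level was 352 ± 64.6 CPM in CD36 KO oxLDL and 15.1 ± 1.68 CPM in CD36 KO control, a log2 response of 4.55 ± 0.28 (SE, adjusted p = 4.06e-07, edgeR). In WT cells it was 740 ± 292 CPM with oxLDL and 7.68 ± 0.753 CPM in control medium, a log2 response of 6.59 ± 0.31 (adjusted p = 3.64e-08). The response in CD36 KO minus that in WT cells was -2.044 on the log2 scale (adjusted p = 0.0226), the same sign as the -2.26 of Ifi44. Of all tested genes, 0.669% were called for this difference.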

How the results depend on the processing

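Outside single-library omissions, the genotype differences and oxLDL responses of Ifi44 and Ifi44l kept their direction, and their tested responses kept their call, under upper-quartile scaling, no filter and DESeq2, and, apart from the difference of responses, in the fit of the 2 groups alone. So did the fitted values under the replicate block and under edgeR without robust spread, the last chosen after seeing the data; the Ifi44l genotype fold, made from summed counts, has no such version. With single libraries left out, Ifi44 ranged over 1.10 to 1.58 under oxLDL and 3.39 to 3.84 in control medium (CD36 KO against WT, log2), its response over 3.71 to 4.16 in CD36 KO and 5.97 to 6.45 in WT cells, and the difference of responses over -2.52 to -2.03. The Ifi44l response in CD36 KO cells ranged over 2.65 to 3.31. The highest adjusted p over all settings was 0.00012 for Ifi44 in CD36 KO, 0.000238 for Ifi44 in WT and 0.003 for Ifi44l. The Ifi44l genotype fold under oxLDL, a lower bound against 3 counts, ranged over 522 to 1143. In control medium it was at least 95.4 without WT control replicate 3, again a bound, and the ratios against 1 count reached up to 504. The Ifi44l response in WT cells could not be computed under any setting, both groups being under 3 counts.

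Counts of calls moved more. Leaving out single libraries gave 2065 to 6205 genes between genotypes under oxLDL (3512 with all), 853 to 4870 in control medium (1823), 3397 to 8314 for oxLDL in CD36 KO (4454), 4517 to 8097 in WT (5980) and 40 to 1158 for the difference of responses (109). Within 1 Mb it gave 3 to 5 and 2 to 6, for effectors 18 to 41 and 2 to 19, and for signalling genes 9 to 19 and 1 to 9, under oxLDL and in control medium. The upper ends came without WT oxLDL replicate 1. The fit of the 2 groups alone called 1191 genes under oxLDL, 6684 in control medium and 3687 for oxLDL in WT; among effectors it called 12 under oxLDL and 20 in control medium, and among signalling genes 3 and 10. DESeq2 called 535 genes for the difference of responses and 12 effectors in control medium. The replicate block called 44 genes for the difference of responses and, like several other settings, ended the call of Ptgfr in control medium. The cause of these moves was not tested. Of genotype calls under oxLDL 54.3% were higher, against 71.2% under upper-quartile scaling, 46.8% by DESeq2, 72.1% in the fit of the 2 groups alone and 43.3% (without WT oxLDL replicate 1) to 60.9% with single libraries left out. Upper-quartile scaling put the all-gene median log2 difference at 0.09, against -0.03. In control medium 78.4% were higher, against 64.3% by DESeq2, 51.4% in the fit of the 2 groups alone and 58.7% (without WT oxLDL replicate 1) to 83.9% with single libraries left out. Same-numbered libraries agreed above r = 0.1 in 2 of 18 pairs, and 2 of 12 libraries correlated best with their own number. At these depths 3 counts over a WT group correspond to 0.0245 CPM under oxLDL and 0.0229 CPM in control medium.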
